A study of Mus musculus with 2 samples.

Results

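The lysosomal proteases and the vacuolar-type proton pump (V-ATPase) were followed in bone marrow-derived macrophages (BMDMs) with and without tristetraprolin (TTP), the AU-rich element-binding protein encoded by *Zfp36*. The set held 45 genes of the 37451 in the expression table. Of these, 20 were named lysosomal genes (9 proteases, 3 other hydrolases, 3 soluble cofactors, 4 membrane proteins and the transcription factor gene *Tfeb*), and 25 were all genes whose symbol begins with Atp6v or Atp6ap, pseudogenes left out. Members were taken by symbol. All 20 named genes and 17 of the 25 V-ATPase genes reached, averaged over the libraries, 1 FPKM (fragments per kilobase of transcript, scaled to the number of mapped fragments). This minimum applies to the counts and medians of levels and log2 ratios that follow, unless another is named. Motif counts take all members that could be searched, unless stated.

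RNA was sequenced from 1 library of WT BMDMs (C57BL/6) and 1 library of ΔM BMDMs (C57BL/6 TTP fl/fl LysMCre), grown with CSF-1 from L929 cells out of the marrow of littermates aged 7 to 9 weeks. Both cultures received 100 µM 4-thiouridine, a nucleoside used to label RNA, for 16 hours and then 10 ng/ml lipopolysaccharide (LPS) for 6 hours. Neither library therefore shows unstimulated cells. The treatment protocol gives 6 hours, while the sample names end in LPS7, and what that number stands for was not given in the sources used here. LysMCre removes the floxed gene in myeloid cells and is itself inserted in the lysozyme gene *Lyz2*; whether the WT littermates carried it was not given in the sources used here. The number of mice behind each library was not given either.

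With 1 library per genotype, no difference below has a replicate check, and no test of genotype was possible. The intervals given are 95% Poisson intervals from fragment numbers estimated from the FPKM and the median annotated transcript length of each gene. For several members that length is below the length of their longest annotated 3′ untranslated region. Fragments are then estimated too low, and the interval can be too wide. All intervals cover counting error only, since amplified copies of one molecule were not told apart. Every log2 ratio is log2((ΔM FPKM + 1)/(WT FPKM + 1)), which understates differences of low genes.

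Lysosomes degrade material delivered by endocytosis, phagocytosis and autophagy, and macrophages are rich in them. Their cathepsins and legumain cleave proteins at acid pH, and the V-ATPase keeps that pH by pumping protons into the lumen. The pump has a cytosolic V1 sector that hydrolyses ATP and a membrane V0 sector that carries the protons. Transcription factors of the MiT/TFE family, TFEB among them, bind E box motifs in the promoters of many of these genes.

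The low FPKM fell on whole multiples of 1 fragment within 0.1 fragment for 93.2% of values in the WT library and 92.6% in the ΔM library, against 20% for evenly spread values, giving a depth of about 36600000 and 32500000 fragments. *Zfp36* itself was at 65.3 FPKM in the WT and 16.7 FPKM in the ΔM library, a log2 ratio of −1.90. All 7 macrophage markers were above 2 FPKM in both libraries, summing to 3695 FPKM in the WT and 2535 FPKM in the ΔM library, with 3 higher and 4 lower in the latter. Their log2 ratios were 0.01 for *Cd68*, 0.19 for *Csf1r*, 0.51 for *Mertk*, −0.09 for *Emr1* and *Cd14*, −0.16 for *Itgam* and −0.87 for *Lyz2*, which holds the Cre insertion. Their part in the results below was not tested. The 4 dendritic cell, 5 T and B cell and 5 fibroblast markers stayed at or below 0.30 FPKM. Of 6 neutrophil markers only *S100a8*, which macrophages also make after LPS, reached the minimum, at 50.7 and 100.02 FPKM, while *Camp* was at 0 and 0.41 FPKM, *Ltf* at 0.02 FPKM in both, and the defining markers *Ly6g*, *Ngp* and *Elane* at 0. The summed neutrophil list was 50.7 FPKM in the WT and 100.5 in the ΔM library, and its part in the results below was not tested.

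Lysosomal genes belonged to the most abundant transcripts of these macrophages. *Ctsd*, which encodes the aspartic protease cathepsin D, was the highest member, ranking 8 among protein-coding genes in the WT library and 6 in the ΔM library. In the WT library 14 of the 37 members above the minimum exceeded 100 FPKM, 18 lay between 10 and 100, and 5 were lower. The 45 members together made up 3.24% of the summed protein-coding FPKM in WT and 3.63% in ΔM BMDMs. The order of the members was nearly the same in both libraries, with a Spearman's rho of 0.986 across the 37 genes, which share those libraries and are not independent replicates. In bulk RNA, fewer cells of a type and less RNA per cell cannot be told apart.

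**Figure D1:**
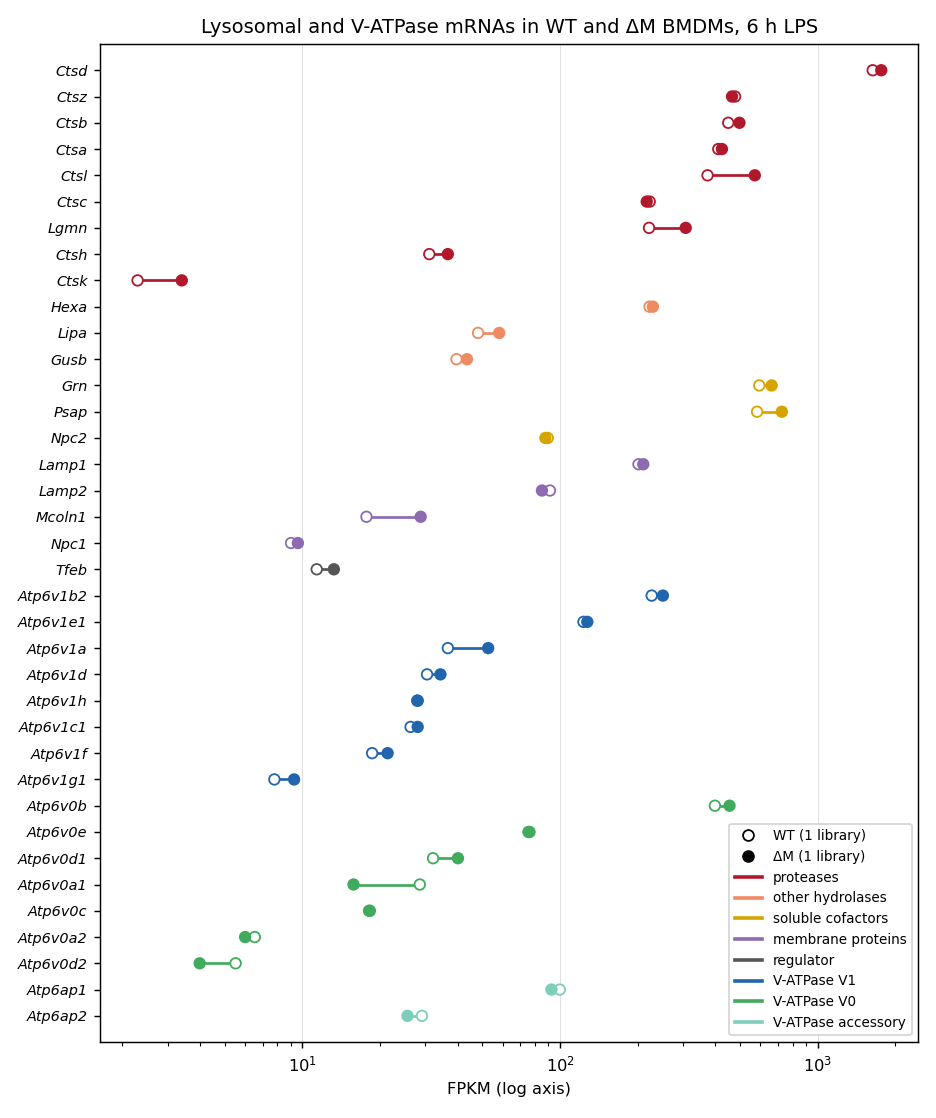
FPKM of each member averaging at least 1 FPKM, on a log axis, in the WT and the ΔM library (1 library each, 1 point per library, a line joins the WT and the ΔM point of each gene). *Ctsd* is highest at 1636 and 1767 FPKM, and most pairs of points lie close together, apart from pairs such as *Ctsl* (374 and 570.3) and *Atp6v0a1* (28.6 and 15.8).

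Between the libraries the members differed by small amounts, more often upwards than downwards in the ΔM library. Of the 37 members, 27 (73.0%) were higher in ΔM BMDMs by any amount, against 49.5% of the 8078 protein-coding genes with the same minimum, and their median log2 ratio was 0.11 against −0.0015. Among them 2 were at least 1.5-fold higher, *Ctsl* and *Mcoln1*, a share of 5.41% beside 4.82% of protein-coding genes. A single member, *Atp6v0a1*, was at least 1.5-fold lower, a share of 2.70% beside 5.36% of protein-coding genes. At this minimum the shares past 1.5-fold were close to or below the background, and the small shift lay in the many genes under that fold. That background is of lower level, with a median of 6.34 FPKM in the WT library against 48.05 for the members. With a mean of at least 10 FPKM, 2 of 32 members were 1.5-fold higher, beside 98 of 3039 protein-coding genes, and 1 was lower, beside 119. The share higher was then above the background, on 2 genes. The counting interval of the log2 ratio lay above 0 for 19 members, below 0 for 7 and held 0 for 11, a number that intervals drawn too wide can raise. No such count was made over all protein-coding genes, and counting intervals are narrower for abundant genes. These numbers are therefore not read as a trait of the set.

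**Figure D2:**
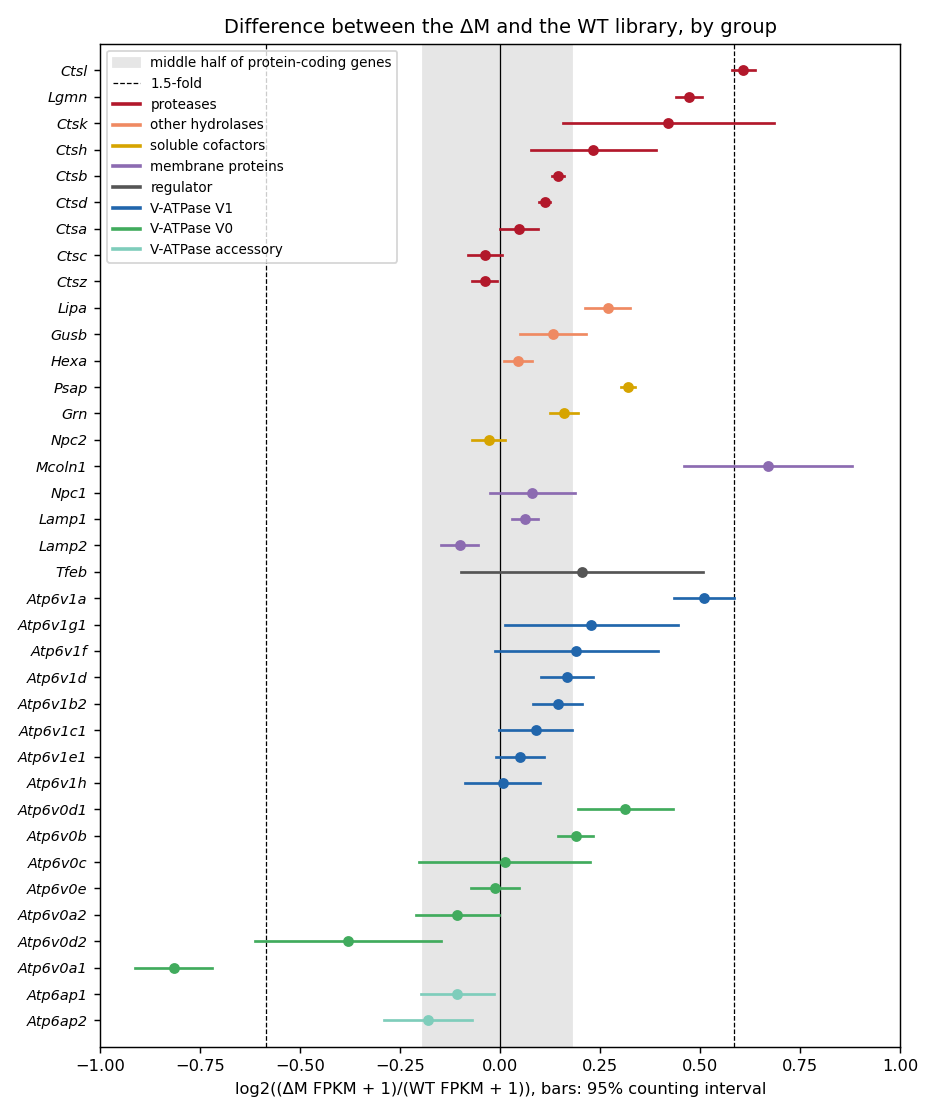
Log2 ratio of the ΔM to the WT library for each member averaging at least 1 FPKM, ordered within groups (1 library per genotype, bars: 95% counting interval, grey band: quartiles of protein-coding genes, dashed lines: 1.5-fold). *Mcoln1* (0.67) and *Ctsl* (0.61) lie past the upper line and *Atp6v0a1* (−0.82) past the lower one, and all 8 V1 genes lie above 0.

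The 9 proteases had a median log2 ratio of 0.14, with 7 higher and 2 lower in ΔM BMDMs. Their summed level was 3828 FPKM in the WT and 4290 FPKM in the ΔM library, 1.12 times as much. *Ctsl* (ENSMUSG00000021477, chr13:64464522-64471614, minus strand, NCBIM37) encodes cathepsin L, a cysteine protease, and showed the largest difference of the proteases. Its level was 374 FPKM in the WT and 570.3 FPKM in the ΔM library, 1.53-fold higher, with an interval of the log2 ratio from 0.58 to 0.64. Among protein-coding genes *Ctsl* ranked 74 in the WT and 38 in the ΔM library.

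*Lgmn* (ENSMUSG00000021190, chr12:103632294-103678023, minus strand) encodes legumain, which cuts after asparagine and processes several cathepsins to their mature forms. It was at 222 FPKM in the WT and 308 FPKM in the ΔM library, a log2 ratio of 0.47 with an interval of 0.44 to 0.50. *Ctsl* and *Lgmn* stood apart from the other abundant proteases in these libraries. *Ctsd* was at 1636 FPKM in the WT and 1767 FPKM in the ΔM library, a log2 ratio of 0.11. *Ctsb*, the gene of the cysteine protease cathepsin B, was at 449.8 FPKM in the WT and 497 FPKM in the ΔM library, a log2 ratio of 0.14. Both differences exceeded their counting error and lay within the quartiles of all protein-coding genes, which were −0.19 and 0.18.

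The remaining proteases with high levels differed by little. *Ctsz*, the gene of the carboxypeptidase cathepsin Z, was at 478 FPKM in the WT and 465 FPKM in the ΔM library. *Ctsc* encodes cathepsin C, the dipeptidyl peptidase that activates granule serine proteases, and was at 223 FPKM in the WT and 217 FPKM in the ΔM library. *Ctsa* encodes the serine carboxypeptidase that protects β-galactosidase and neuraminidase, and was at 412 FPKM in the WT and 425 FPKM in the ΔM library. The log2 ratios of these 3 genes lay between −0.04 and 0.05, and only that of *Ctsz* had an interval, −0.07 to −0.01, that excluded 0. The interval of *Ctsa*, −0.0015 to 0.10, can be too wide. It used a transcript length of 667 nt, below the 1798 nt of the gene's longest annotated 3′ untranslated region. *Ctsa* overlaps *Pltp* on the opposite strand by 1515 bases, and *Pltp* was at 681 and 809 FPKM, so without strand in the counting reads of the pair cannot be told apart.

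*Ctsh*, the gene of the aminopeptidase cathepsin H, was at 31.1 FPKM in the WT and 36.7 FPKM in the ΔM library, a log2 ratio of 0.23 with an interval of 0.08 to 0.39. *Ctsk*, the collagen-cleaving cathepsin of osteoclasts, was the lowest protease at 2.29 FPKM in the WT and 3.40 FPKM in the ΔM library. That difference, a log2 ratio of 0.42, rested on about 108 and 142 fragments and had an interval of 0.16 to 0.68. Beside it, the 8 osteoclast markers summed to 6.59 FPKM in the WT and 8.45 FPKM in the ΔM library. Of these only *Acp5* (4.35 and 5.80 FPKM) and *Mmp9* (1.01 and 1.84 FPKM) reached the minimum, *Oscar* was at 0 and *Calcr* and *Ocstamp* were at or below 0.04 FPKM. *Dcstamp*, of the same list, was lower in the ΔM library, at 0.49 FPKM in the WT and 0.10 FPKM in the ΔM library, and the part of these cells in the difference was not tested. Cathepsin S, a cysteine protease of antigen presentation outside the named list, had *Ctss* at 1346 FPKM in the WT and 1473 FPKM in the ΔM library, a log2 ratio of 0.13 that resembled those of *Ctsb* and *Ctsd*.

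The 3 other hydrolases were all higher in the ΔM library by small amounts. *Lipa*, the gene of the acid lipase that splits cholesteryl esters and triglycerides, was at 48.0 FPKM in the WT and 58.1 FPKM in the ΔM library, a log2 ratio of 0.27 with an interval of 0.21 to 0.32. *Gusb*, which encodes β-glucuronidase, was at 39.6 FPKM in the WT and 43.5 FPKM in the ΔM library. *Hexa*, the gene of the hexosaminidase A subunit that degrades GM2 ganglioside, was at 223 FPKM in the WT and 229 FPKM in the ΔM library. *Gusb* and *Hexa* had log2 ratios of 0.13 and 0.04.

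Among the soluble cofactors *Psap* (ENSMUSG00000004207, chr10:59740375-59765345, plus strand) encodes prosaposin, the precursor of the saposins that present sphingolipids to hydrolases. *Psap* was at 582.17 FPKM in the WT and 726 FPKM in the ΔM library, a log2 ratio of 0.32 with an interval of 0.30 to 0.34. In FPKM the gap of *Psap* was exceeded by *Ctsl* alone among the members. *Grn*, the gene of progranulin, a glycoprotein that binds prosaposin and reaches the lysosome with it, was at 594 FPKM in the WT and 663 FPKM in the ΔM library, a log2 ratio of 0.16. *Npc2*, which encodes the soluble cholesterol carrier, was at 89.6 FPKM in the WT and 87.7 FPKM in the ΔM library, a difference within its counting error.

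The membrane proteins were divided. *Mcoln1* (ENSMUSG00000004567, chr8:3500457-3515232, plus strand) encodes TRPML1, a channel that releases calcium from lysosomes, and had the highest log2 ratio of the 37 members. It was at 17.7 FPKM in the WT and 28.8 FPKM in the ΔM library, 1.62-fold higher, or 0.67 on the log2 scale with an interval of 0.46 to 0.88 from about 277 and 399 fragments. *Lamp1*, a gene of the main glycoproteins that line the lysosomal membrane, was at 202 FPKM in the WT and 210.5 FPKM in the ΔM library. Its relative *Lamp2*, which also acts in chaperone-mediated autophagy, was at 91.4 FPKM in the WT and 85.1 FPKM in the ΔM library, the lowest log2 ratio of the 20 named genes at −0.10. *Npc1* encodes the membrane partner of NPC2 in cholesterol export and was at 9.03 FPKM in the WT and 9.60 FPKM in the ΔM library, within its counting error. The abundant markers of lysosomal membrane therefore differed by far less than the calcium channel gene.

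*Tfeb*, the gene of a MiT/TFE factor, was at 11.4 FPKM in the WT and 13.2 FPKM in the ΔM library, a log2 ratio of 0.20. The interval of −0.10 to 0.51 held 0 but rests on a transcript length of 551 nt. That length is below the 1110 nt of the longest annotated 3′ untranslated region of *Tfeb*, so the interval can be too wide to settle the direction. The relatives *Mitf* (146 and 144 FPKM) and *Tfec* (12.0 and 11.5 FPKM) were level within counting error. *Tfe3* was at 37.0 FPKM in the WT and 42.8 FPKM in the ΔM library, a log2 ratio of 0.20 with an interval of 0.14 to 0.27. The mTORC1 branch holds the factors of this family in the cytoplasm when nutrients are plentiful. Of 13 genes of this family and branch, 12 reached the minimum, and 6 were higher, 6 lower and 0 past 1.5-fold in either direction. Their log2 ratios ranged from −0.42 (*Rragc*) to 0.53 (*Lamtor2*). *Rragd*, below the minimum, was at 0.08 FPKM in the WT and 0.76 FPKM in the ΔM library, a log2 ratio of 0.70.

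The V-ATPase genes are given by sector, and the difference between sectors was not tested. The 8 V1 genes above the minimum were all higher in the ΔM library by some amount, with a median log2 ratio of 0.16, while the 7 V0 genes had 3 higher and 4 lower and a median of −0.01. The 2 accessory genes were both lower. Summed over all their genes, V1 transcripts were at 499 FPKM in the WT and 554 FPKM in the ΔM library and V0 transcripts at 567 and 615 FPKM, ratios of 1.11 and 1.09. The V0 sum was carried by *Atp6v0b*, its most abundant gene.

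In V1, *Atp6v1a* (ENSMUSG00000052459, chr16:44085515-44139818, minus strand) encodes the catalytic A subunit and had the largest difference. It was at 36.7 FPKM in the WT and 52.6 FPKM in the ΔM library, 1.43-fold higher, with an interval of the log2 ratio from 0.43 to 0.58. This put it just under the 1.5-fold line, with *Ctsl* and *Mcoln1* just past it. Its partner in the ATP-hydrolysing ring, the B subunit, came almost wholly from *Atp6v1b2*, which was at 227 FPKM in the WT and 251 FPKM in the ΔM library, a log2 ratio of 0.14. Both ring genes were thus higher in the ΔM library, *Atp6v1a* by the wider margin.

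The other V1 genes differed less than *Atp6v1a*. *Atp6v1e1*, of the peripheral stalk, was at 123 FPKM in the WT and 128 FPKM in the ΔM library. *Atp6v1d*, of the central rotor stalk, was at 30.5 FPKM in the WT and 34.3 FPKM in the ΔM library, a log2 ratio of 0.17 with an interval of 0.10 to 0.23. *Atp6v1c1*, whose subunit joins the stalks to the membrane sector, was at 26.3 FPKM in the WT and 28.0 FPKM in the ΔM library. Of these 3 genes only *Atp6v1d* had an interval above 0. *Atp6v1h*, of the regulatory H subunit, was at 27.9 FPKM in the WT and 28.0 FPKM in the ΔM library. *Atp6v1f* was at 18.6 FPKM in the WT and 21.4 FPKM in the ΔM library, and *Atp6v1g1* at 7.78 and 9.28 FPKM. These last values are uncertain, because 72.1% of the 100-nt windows of *Atp6v1f* and 81.0% of those of *Atp6v1g1* have near-identical copies elsewhere in the genome.

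In V0, *Atp6v0a1* (ENSMUSG00000019302, chr11:100870766-100925033, plus strand) encodes a1, one of the paralogous forms of the large a subunit along which protons cross the membrane. It was at 28.6 FPKM in the WT and 15.8 FPKM in the ΔM library, the lowest log2 ratio of all members at −0.82, with an interval of −0.91 to −0.72 from about 2353 and 1155 fragments. Its rank among protein-coding genes was 1321 in the WT and 2147 in the ΔM library. *Atp6v0a2*, the a2 form, was at 6.53 FPKM in the WT and 5.99 FPKM in the ΔM library, a log2 ratio of −0.11. The dominant form in these macrophages was a3, encoded by *Tcirg1*, whose symbol keeps it outside the set, at 258 FPKM in the WT and 272 FPKM in the ΔM library. The sum over the a genes was 294 FPKM in both libraries, of which *Atp6v0a1* held 9.72% in the WT and 5.38% in the ΔM library, and *Tcirg1* 88.0% and 92.5%. The summed level of the a genes was therefore alike in the libraries while the share of the a1 form was lower.

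The d subunit, which couples the rotor to the V0 ring, showed a shift of shares too. *Atp6v0d1* was at 32.1 FPKM in the WT and 40.15 FPKM in the ΔM library, a log2 ratio of 0.31 with an interval of 0.19 to 0.43. *Atp6v0d2*, the form known from osteoclasts and from kidney, was at 5.50 FPKM in the WT and 3.99 FPKM in the ΔM library, a log2 ratio of −0.38 with an interval of −0.61 to −0.15 from about 254 and 163 fragments. The d2 form therefore held 14.6% of the d transcripts in the WT and 9.04% in the ΔM library. *Atp6v0d2* and *Ctsk*, both genes of osteoclasts, differed in opposite directions.

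**Figure D3:**
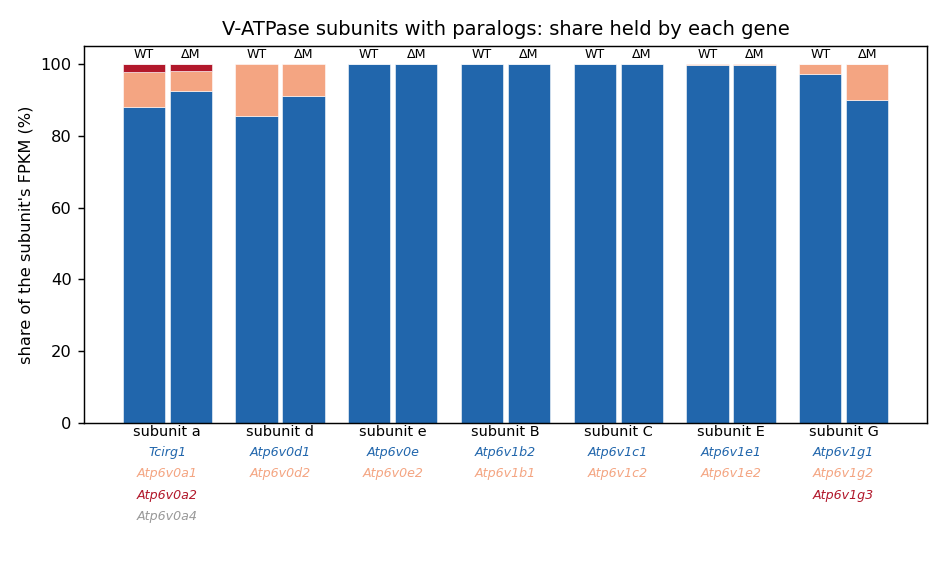
Share of summed FPKM (percent, stacked bars from 0) held by each paralog of a V-ATPase subunit in the WT and the ΔM library, 1 library each. *Tcirg1* leads subunit a (88.0% and 92.5%), and *Atp6v0a1* (9.72% and 5.38%) and *Atp6v0d2* (14.6% and 9.04%) have smaller shares in the ΔM library.

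*Atp6v0b*, which encodes a proteolipid of the proton-carrying ring, was at 399 FPKM in the WT and 455 FPKM in the ΔM library, a log2 ratio of 0.19 with an interval of 0.15 to 0.23. It overlaps *Gm12841* by 1670 bases on the opposite strand, a gene at 32.6 and 36.5 FPKM. *Atp6v0c*, of the main ring proteolipid, was at 18.1 FPKM in the WT and 18.3 FPKM in the ΔM library, with near-identical copies for 79.7% of its windows. *Atp6v0e*, of a small membrane subunit, was at 76.1 FPKM in the WT and 75.4 FPKM in the ΔM library. Both were level within counting error. The accessory *Atp6ap1*, which assists assembly of V0, was at 99.8 FPKM in the WT and 92.6 FPKM in the ΔM library, a log2 ratio of −0.11. *Atp6ap2*, the prorenin receptor gene, was at 29.1 FPKM in the WT and 25.6 FPKM in the ΔM library, a log2 ratio of −0.18 with an interval of −0.29 to −0.07.

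The other 8 V-ATPase genes, among them the alternative forms of the B, C, E, G and e subunits, lay at or below 1.03 FPKM in both libraries. *Atp6v1g3* and *Atp6ap1l* were listed at 0 in both. *Atp6v1g2*, a brain form of the G subunit, was at 0.24 FPKM in the WT and 1.03 FPKM in the ΔM library, from about 7 and 28 fragments, and overlaps *Nfkbil1* by 2133 bases on the opposite strand, a gene at 1.24 and 2.36 FPKM. For the B, C, E and e subunits 1 gene supplied at least 99.7% of the transcripts in each library.

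Promoters of these genes were searched for the E box CACGTG and for its 8-base form TCACGTGA, both of which read the same on either strand. The window ran from 250 bases before to 50 bases after each RefSeq start (GRCm38.p6), and 35 of the 45 members had an entry. CACGTG occurred in 10 of the 35 (28.6%), against 12.8% of 5890 expressed protein-coding genes (at least 1 FPKM on average) and 8.09% of 27025 genes in all. The 35 include 7 members below 1 FPKM, and 0 of these have the motif. TCACGTGA, which contains CACGTG, occurred in 6 of the 35 (17.1%), against 2.63% and 1.12%. The members with CACGTG were *Mcoln1*, *Ctsl*, *Atp6v1a*, *Lgmn*, *Atp6v0d1*, *Atp6v0b*, *Ctsd*, *Lamp1*, *Ctsa* and *Atp6v0e*. Among them were the 4 members with the highest log2 ratios, a remark made after the values were seen, and their stretches are printed here with those of *Lamp1* and *Ctsa*, which hold several copies at nearly level expression. Capitals mark each CACGTG.
Mcoln1, chr8:3500433-3500494, plus strand: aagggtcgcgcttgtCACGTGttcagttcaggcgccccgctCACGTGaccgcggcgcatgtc
Ctsl, chr13:64370736-64370770, minus strand: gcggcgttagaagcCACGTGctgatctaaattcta
Atp6v1a, chr16:44139370-44139405, minus strand: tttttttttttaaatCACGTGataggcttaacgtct
Lgmn, chr12:102439121-102439156, minus strand: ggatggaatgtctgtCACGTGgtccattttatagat
Lamp1, chr8:13159085-13159166, plus strand: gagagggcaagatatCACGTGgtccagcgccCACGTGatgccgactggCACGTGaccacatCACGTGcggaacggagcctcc
Ctsa, chr2:164833746-164833798, plus strand: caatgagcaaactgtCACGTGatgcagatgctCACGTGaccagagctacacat

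The stretches differ in number and place of the motif. *Mcoln1* has 2 copies, beginning at −71 and −45 from its start, and *Lgmn* has 1 copy at −49. *Lamp1* has 4 copies from −61 to −15, more than any other member. In *Ctsl* and *Atp6v1a* the single copy lies at −236 and −131, farther out than in *Lgmn*. A match is a stretch of letters and was not tested for binding.

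**Figure D4:**
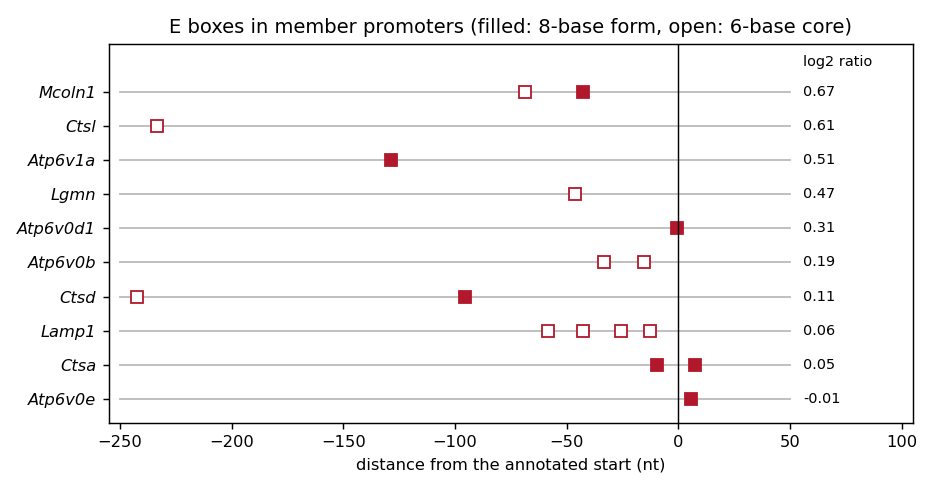
Position of each CACGTG in the promoters of the 10 members that have it, as distance in bases from the RefSeq start (0), with the 8-base form set apart and the log2 ratio of the ΔM to the WT library at the right. *Lamp1* has 4 matches and a log2 ratio of 0.06, while *Ctsl* has 1 match at −236 and a log2 ratio of 0.61.

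The 10 members with CACGTG had a median log2 ratio of 0.25 and ranged from −0.01 to 0.67, with 9 higher in the ΔM library. The 18 members of at least 1 FPKM whose promoters lacked it had a median of 0.05 and ranged from −0.82 to 0.42, with 11 higher. The groups also differed in level, with median WT FPKM of 212 with the motif and 68.8 without. Members without a promoter entry are in neither group. For the 8-base form the medians were closer, 0.21 for the 6 members with it and 0.10 for the 22 without. Across all protein-coding genes CACGTG went with no such difference, since the medians were −0.0081 for the 752 genes with it and −0.0074 for the 5138 without. Number of copies and difference did not go together within the members, as *Lamp1* and *Ctsa* had log2 ratios of 0.06 and 0.05.

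TTP binds AU-rich elements in 3′ untranslated regions, with the nonamer TTATTTATT as its classical site, and recruits the deadenylation machinery. The nonamer was found in the longest annotated 3′ untranslated region of 5 of the 45 members (11.1%), against 6.89% of 7935 protein-coding genes of at least 1 FPKM. The core TATTTAT, which every nonamer contains, was found in 15 (33.3%), against 27.0%. Among the 37 members of at least 1 FPKM the counts were 5 (13.5%) and 12 (32.4%). The parts of the set differed, with the core in 12 of 25 V-ATPase genes (48%) and 3 of 20 named genes (15%). The 5 sites are shown because they are the members' only copies of the motif, 29 bases each on the transcribed strand (NCBIM37), with the nonamer in capitals.
Mcoln1, chr8:3515093-3515121, plus strand: ggaccccagcTTATTTATTtttagaattt
Atp6v0b, chr4:117557169-117557197, minus strand: tgccctactgTTATTTATTgctggttttc
Atp6v1e1, chr6:120745273-120745301, minus strand: caaatattctTTATTTATTaaaacagagg
Atp6v0e, chr17:26833144-26833172, plus strand: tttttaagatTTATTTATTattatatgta
Atp6ap1, chrX:71549626-71549654, plus strand: ccctctctccTTATTTATTcttgcccctc

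Of the 5 genes *Mcoln1* is the single member of the named list and, as given above, the one past 1.5-fold, its nonamer beginning 53 bases after the stop codon. The other 4 are V-ATPase genes with log2 ratios of 0.19 (*Atp6v0b*), 0.05 (*Atp6v1e1*), −0.01 (*Atp6v0e*) and −0.11 (*Atp6ap1*). The median over the 5 was 0.05, against 0.12 for the 32 members of at least 1 FPKM without the nonamer. *Ctsl*, *Lgmn* and *Atp6v1a* have no nonamer in the annotated region searched. Across protein-coding genes the medians were 0.01 for the 547 genes with it and −0.0041 for the 7388 without.

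The study's list of TTP crosslinking sites in WT BMDMs, used here only for positions, has entries for *Atp6v1e1*, *Ctsb*, *Ctsz* and *Psap* among the members. The share of all genes with an entry was not computed here. In *Atp6v1e1* a site in the last exon, chr6:120745291-120745301, overlaps the stretch printed above. It covers the bases before the nonamer and only the first base of the nonamer itself. In *Ctsb* 4 neighbouring sites lie in intron 1, and the longest is shown because it is a run of overlapping pentamers, with ATTTA in capitals (NCBIM37).
Ctsb, chr14:63743475-63743518, plus strand: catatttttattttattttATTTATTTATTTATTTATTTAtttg

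The *Ctsb* stretch holds 5 overlapping ATTTA pentamers, and mature *Ctsb* RNA, measured over exons, had the log2 ratio of 0.14 given above. Sites in *Ctsz* and *Psap* also lie in introns, in intron 3 and intron 7. The log2 ratios of these genes were −0.04 and 0.32. Nothing is drawn here from a member that has no entry in the list.

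A wider list of 54 further lysosomal entries, of which 49 reached the minimum, was used to place the members. In it 30 were higher and 19 lower in the ΔM library, with a median log2 ratio of 0.07, which lay between the 0.14 of the 20 named genes and the −0.0015 of protein-coding genes. Among genes averaging at least 10 FPKM the median of the wider list was 0.01, while that of the named genes was still 0.14. *Arsa* (2.14 and 4.16 FPKM) and *Manba* (4.96 and 8.28 FPKM), genes of arylsulfatase A and β-mannosidase named here because they alone passed 1.5-fold, were higher in the ΔM library, and 0 were lower by that fold. Among genes averaging at least 10 FPKM, the highest log2 ratios were those of *Tmem192* (0.51), a membrane protein gene, of *Gla* (0.43), which encodes α-galactosidase A, and of *Cd63* (0.33), a tetraspanin gene. Among the 3 lowest was *Clcn7* (−0.31), the gene of a chloride-proton exchanger.

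**Figure D5:**
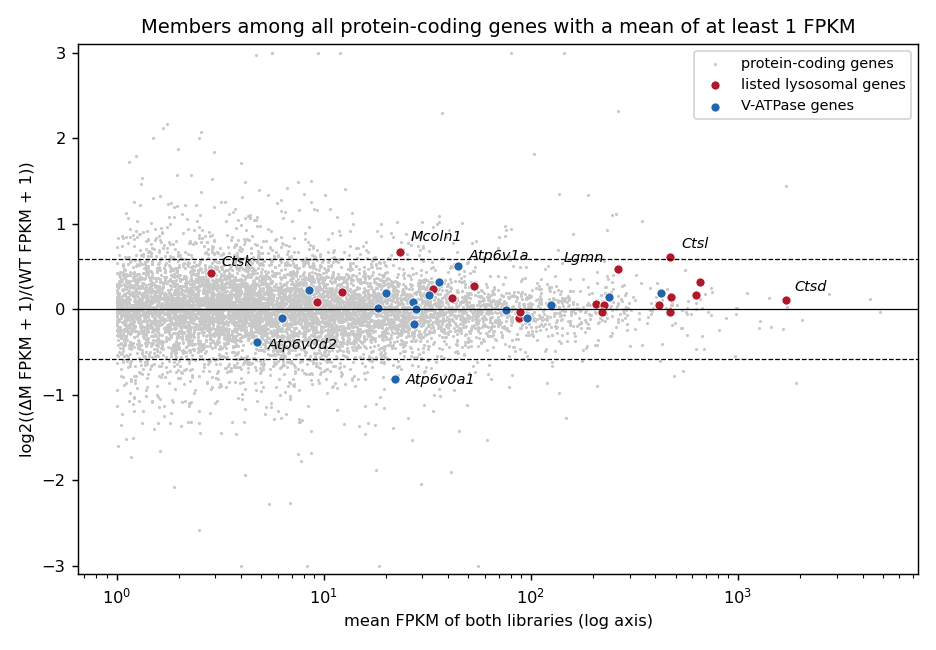
Log2 ratio of the ΔM to the WT library against mean FPKM (log axis) for the 8078 protein-coding genes (grey) with the members marked by group, 1 library per genotype. The members reach from 2.85 to 1702 FPKM and from −0.82 to 0.67, inside the grey cloud, and 10 genes beyond a log2 ratio of 3 in either direction are drawn at the edge.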

How the data were processed

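RNA was taken from 1 WT and 1 ΔM BMDM culture and depleted of ribosomal RNA before 100-bp paired-end sequencing. The authors mapped reads with Segemehl to the mouse genome (mm9, the same assembly as NCBIM37) and computed FPKM per gene with Cufflinks on Ensembl exons. The deposited table gives these FPKM for 37451 genes, 1 column per library. The strand setting was not given in the sources used here.

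From the FPKM, log2 ratios were computed with a pseudocount of 1 FPKM (pandas 2.3.3). Genes averaging under 1 FPKM were left out of counts and medians of levels and ratios, though not of all motif counts. Fragments per library were recovered from whole-number steps of low FPKM of genes with 1 transcript of 300 to 900 nt, and fragments per gene used the median annotated transcript length. Genes were joined to GENCODE M1 (37039 identifiers found). Near-identical copies were sought by aligning 100-nt windows to the genome (minimap2 2.31, at least 95 bases, at most 4 differences). Promoters came from RefSeq (GRCm38.p6). The scripts were tested on simulated data. All named members and V-ATPase genes averaging at least 1 FPKM are named, and of the wider list the 3 highest and 3 lowest ratios above a mean of 10 FPKM, of which 2 are not reported here. The members and lists were chosen with earlier results of these data known. Alternatives were a pseudocount of 0.1, centring, other filters, 2-fold, all genes and equal sums.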

Additional observations from a re-analysis of the deposited data

How the results depend on the processing

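The medians of the named genes, the proteases, the V-ATPase genes and the wider list stayed above 0 under every alternative run for them. Of 43 alternative summary values, 33 stayed within 1.5 times the count or within the order-statistic interval of the median. That interval was 0.05 to 0.27 for the named genes and −0.04 to 0.47 for the proteases. It was −0.11 to 0.19 for the V-ATPase genes and −0.05 to 0.13 for the wider list. Only the interval of the named genes excluded 0. These intervals describe the spread over genes that share 1 library per genotype and are not replicates. The sign of none of these medians is therefore settled for the genotype. Centring moved these medians by too little to test their sign. The V-ATPase median fell to 0.01 without a filter, and the median of the wider list was 0.01 for genes averaging at least 10 FPKM. Past 2-fold instead of 1.5-fold, 0 members were higher and 0 lower. Protein-coding genes past 1.5-fold, 389 higher and 433 lower with the settings of the report, numbered 640 and 658 with a pseudocount of 0.1, 98 and 119 of 3039 with a mean of at least 10 FPKM, 96 and 107 past 2-fold, and 1202 and 808 of 10765 when all genes of the table were counted. Without a filter *Atp6v1g2* also passed 1.5-fold, giving 3 members higher. The ratios of the 37 members moved by at most 0.13, and all 74 such values lay within the counting interval. Those values came from centring on −0.0015 and from the pseudocount of 0.1. Neither can move the ratio of an abundant gene far, so this is a weak check. After seeing the data, 2 alternatives were added. Without the 3 genes with near-identical copies the V-ATPase median was 0.03 instead of 0.05, and without the genes that overlap another expressed gene the median of the named genes was 0.15 instead of 0.14.

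No paired analysis was possible because each genotype has 1 library. Depth limits the low members most: *Ctsk* rested on about 108 fragments in the WT library, and the members under 1 FPKM give no usable ratio. Leaving out a library leaves no comparison.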
